A study of Mus musculus with 6 samples.

Results

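The 85 genes described here encode the subunits of the mitochondrial respiratory chain that the nucleus supplies. They were taken by symbol from the 32285 genes of the deposited count table: the Nduf genes of complex I, the Sdh genes of complex II, the Uqcr genes and Cyc1 of complex III, the Cox4 to Cox8 genes of complex IV, the Atp5 genes of ATP synthase (complex V) and Cycs, the gene of somatic cytochrome c. Complex I had 35 of them, complex II 4, complex III 9, complex IV 19, complex V 17 and cytochrome c 1. Ndufa4 was counted with complex IV, where its protein sits, and Cox7a2l, whose product helps to join complexes III and IV, was kept with complex IV by its symbol. Ndufab1, the acyl carrier subunit of complex I, falls outside the symbol rule and was followed separately.

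Cells came from sciatic nerves of 23-week-old C57BL6/J mice fed either SD or HFD, the standard and the high fat diet, and were enriched for Schwann cells, the glia of peripheral nerve, with magnetic beads against the O4 antigen. Molecules were counted by their unique molecular identifiers (UMIs) in 364 cells of 5 libraries, 3 from SD mice and 2 from HFD mice; HFD replicate 3 was not analysed here. The libraries deposited under the name Ctrl were taken as the SD replicates of the same number. No label gives each library an animal of its own, and the spread that the p-values rest on may therefore be technical. The SD libraries held 201 cells and the HFD libraries 163, and library totals ranged from 37744 UMIs in SD replicate 3 to 349450 in HFD replicate 1. The authors divided the cells into 5 clusters. Cluster 0 (143 cells, named Macrophages) carried all 15 markers of a macrophage list, and cluster 2 (60 cells, named SCP by the authors) carried all 14 markers of a myelinating Schwann cell list at 34197 to 61367 counts per 1000000 UMIs (CPM), so that name goes against its markers. Cluster 1 (92 cells, named mySC) held the same 14 markers at a lower depth, with neutrophil transcripts in both HFD libraries and erythroid ones in HFD replicate 1. It also held mast cell transcripts, at up to 6732 CPM on SD and at most at 68.4 CPM on HFD. Its macrophage list was at 9176, 88.4 and 0 CPM in SD replicates 1 to 3 and at 8804 and 10300 CPM in the HFD libraries. Cluster 4 (24 cells, named nmSC) carried all 8 endoneurial fibroblast markers and 3 of 8 nonmyelinating Schwann markers. Cluster 3 (45 cells, named repairSC) held 4 of 8 nonmyelinating Schwann markers, with Ngfr, Gfap, Sox2 and Scn7a at 0. This list was at 13328 CPM pooled, the highest level of the 5 clusters. It was at 20282 to 65632 CPM in the 3 libraries with at least 3 cells of the cluster. Macrophage markers were at 36457 CPM there in HFD replicate 2. Cluster 3 also held 9 of 10 neutrophil markers, at 46710 CPM pooled, again the highest level of the 5 clusters. In each library with at least 3 of its cells, that list was at most at 535 CPM. T and NK cell markers were at 0 in each cluster, and no barcode was shared between libraries.

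The respiratory chain passes electrons from NADH, through complex I, and from succinate, through complex II, to ubiquinone, then through complex III and cytochrome c to complex IV, which reduces oxygen. Complexes I, III and IV pump protons across the inner mitochondrial membrane, and complex V uses the gradient to make ATP. Most subunits are encoded in the nucleus, and the remaining ones, which form much of the catalytic core, in mitochondrial DNA. Schwann cells are known to need a working chain: loss of mitochondrial function in them leads to neuropathy in mice.

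Promoters of these genes are known for binding sites of the nuclear respiratory factors, and their sequences are shown here because the same genes were counted at levels from 0 to 575 UMIs. RefSeq promoter windows (GRCm38.p6), cut here to the 250 bases before the start site, were found for 68 of the 85 genes, 66 of them with at least 1 UMI. A gene with several windows was counted once, by a match in any of them. The core of the NRF1 motif, GCATGCGC or its reverse complement GCGCATGC, was present in 9 of the 66 genes (13.6%) and in 2.56% of 27025 genes. Those 27025 were taken with or without UMIs, unlike the 66. The full NRF1 palindrome, in which both spellings overlap, was found in 6.06% of the 66 and in 0.877% of all genes. In capitals, with flanking bases in lower case and read along the gene's strand, the 9 matches were:

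Ndufa6 (complex I, chr15:82354356-82354385, minus strand): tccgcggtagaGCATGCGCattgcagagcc
Ndufa8 (complex I, chr2:36049339-36049357, minus strand): tcgctggagacGCATGCGC
Ndufa11 (complex I, chr17:56717693-56717722, plus strand): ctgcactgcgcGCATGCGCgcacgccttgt
Sdhb (complex II, chr4:140961206-140961235, plus strand): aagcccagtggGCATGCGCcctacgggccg
Cycs (cytochrome c, chr6:50566611-50566640, minus strand): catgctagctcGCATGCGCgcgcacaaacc
Cox6a1 (complex IV, chr5:115349100-115349129, minus strand): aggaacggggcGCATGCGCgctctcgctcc
Atp5g2 (complex V, chr15:102671069-102671098, minus strand): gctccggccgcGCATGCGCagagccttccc
Atp5k (complex V, chr5:108434429-108434458, minus strand): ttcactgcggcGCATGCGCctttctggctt
Atp5l (complex V, chr9:44920964-44920992, minus strand): aaccaataacGCATGCGCatttcccccac

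The 9 genes belong to 4 of the 5 complexes and to cytochrome c. The match began 8 bases before the start site in Ndufa8 and 240 bases before it in Atp5l. The ETS-family letters CCGGAAG (or CTTCCGG) were in 18.2% of the 66 genes against 7.83% of all genes, CCAAT (or ATTGG) in 45.5% against 37.5%, and TATAAA (or TTTATA) in 9.09% against 14.3%. With the highest window taken for each gene, the 66 genes held a median of 14 CpG dinucleotides, and all genes a median of 6. These matches are descriptions of letters in a window.

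Respiratory chain genes supplied 13268 of 1155624 UMIs, or 1.15%. UMIs were counted in 80 of the 85 genes, and the median gene had 125 UMIs, or 108 CPM. These 3′ UMI counts hold 1 count per captured molecule whatever the transcript's length, so CPM can be compared between genes. The 10 most abundant genes held 32.1% of the UMIs of the set. How reads that also match processed pseudogenes, common in this gene family, were counted is not given in the sources used here, and levels of single genes are uncertain to that extent.

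**Figure D1:**
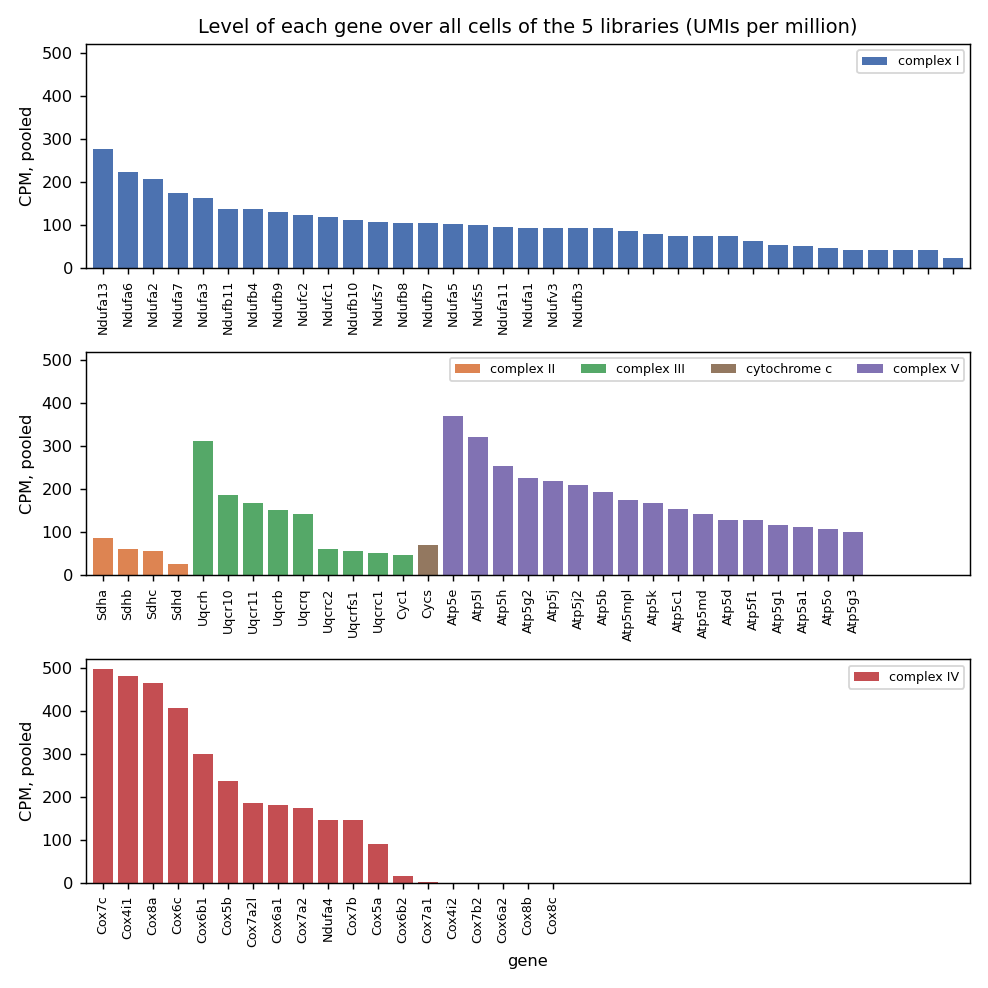
Level of each of the 85 genes in CPM over all cells of the 5 libraries pooled, with the genes of each complex in falling order (linear axis from 0); in complex I only the 20 highest are labelled. Complex IV spans the whole range, from Cox7c at 498 CPM to 5 genes with no UMI, and complex II genes lie under 100.

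Complex IV held both the most abundant and the undetected genes. Cox7c, a small structural subunit, led the set with 575 UMIs (498 CPM), and was at 580, 485 and 371 CPM in SD replicates 1 to 3 and at 515 and 422 CPM in the HFD libraries. Cox4i1, the general form of subunit 4, followed with 557 UMIs, and was at 506, 544 and 636 CPM on SD and at 401 and 501 on HFD. Cox8a followed with 537 UMIs (465, 472 and 715 CPM on SD, 403 and 498 on HFD). The libraries of both diets overlapped for Cox7c and Cox8a, and both HFD values lay below the SD values for Cox4i1.

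The subunits with tissue-specific isoforms were counted almost solely as their general forms. Cox6a1 had 210 UMIs, and Cox6a2, its heart and skeletal muscle form, had 0. Cox8a had 537 UMIs, and the muscle form Cox8b and the testis form Cox8c had 0 each. Cox7a2 had 200 UMIs and the muscle form Cox7a1 had 3, all 3 in different cells. Cox6b1 had 347 UMIs and the testis form Cox6b2 had 18. Cox4i1 had 557 UMIs and the form associated with lung and low oxygen, Cox4i2, had 0, and Cox7b2, another testis form, also had 0. A count of 0 among 1155624 UMIs allows up to 3 counts, by counting error alone, so very low levels were not detectable at this depth.

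The Cox8a and Cox8b windows are shown as those of an isoform pair with 537 UMIs against 0. CpG dinucleotides are in capitals.

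Cox8a (GRCm38.p6, chr19:7217617-7217866, minus strand): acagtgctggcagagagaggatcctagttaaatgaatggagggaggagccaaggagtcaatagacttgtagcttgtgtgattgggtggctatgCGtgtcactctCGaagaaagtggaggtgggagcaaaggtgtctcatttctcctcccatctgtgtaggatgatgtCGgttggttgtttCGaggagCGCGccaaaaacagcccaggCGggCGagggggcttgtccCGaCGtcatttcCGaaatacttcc
Cox8b (GRCm38.p6, chr7:140900447-140900696, minus strand): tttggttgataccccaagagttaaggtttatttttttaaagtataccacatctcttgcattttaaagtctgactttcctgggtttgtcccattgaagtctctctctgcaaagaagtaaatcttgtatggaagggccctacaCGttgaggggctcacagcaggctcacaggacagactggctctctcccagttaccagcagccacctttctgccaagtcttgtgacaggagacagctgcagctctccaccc

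The Cox8a window held 11 CpG dinucleotides, most of them in the part nearest the start site, and the Cox8b window held 1. Their GC content was 52.8% and 47.2%.

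The 3 genes of the ATP synthase c subunit, Atp5g1, Atp5g2 and Atp5g3, encode the same mature protein with different import peptides. Atp5g2 had the most UMIs, 261 (226 CPM), Atp5g1 had 135 (117 CPM) and Atp5g3 had 115 (99.5 CPM). Atp5g2 was above Atp5g3 in each of the 5 libraries and above Atp5g1 in 4 of them. In SD replicate 2 the order was reversed, with Atp5g1 at 201 CPM and Atp5g2 at 181.

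Complex V was the most even of the large complexes. Its 17 genes lay between 99.5 and 370 CPM, and the highest were Atp5e, the epsilon subunit of the catalytic head (428 UMIs), and Atp5l, a subunit of the membrane part (371 UMIs). Atp5e was at 317, 421 and 159 CPM on SD and at 424 and 362 on HFD, so its lowest value came from SD replicate 3, the library with the fewest UMIs. Atp5l was at 256, 356 and 291 CPM on SD and at 361 and 325 on HFD, with overlapping diets. In complex III, Uqcrh, the hinge protein, had 362 UMIs and Uqcr10, a small membrane subunit, had 215. Cyc1, which carries the haem of cytochrome c1, was the lowest of complex III at 46.7 CPM.

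Complex II, which is also an enzyme of the citric acid cycle, was the lowest. Sdha, the flavoprotein, had 100 UMIs, Sdhb, the iron-sulfur subunit, 71, and the membrane anchors Sdhc and Sdhd 66 and 31. All 4 together made up 2.02% of the UMIs of the set. Cycs, the electron carrier between complexes III and IV, had 81 UMIs (70.1 CPM).

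In complex I, the highest genes were accessory subunits, Ndufa13 with 318 UMIs (275 CPM) and Ndufa6 with 257 (222 CPM). The 7 nuclear core subunits, which hold the flavin and the iron-sulfur clusters, had a median of 45.9 CPM, and the 28 accessory subunits 100.4 CPM; this split was made after the values were seen. The core subunits lay between 39.8 and 106 CPM, within the accessory range of 22.5 to 275 CPM.

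The share of UMIs from respiratory chain genes was much alike in clusters 0 and 2 and near 0 in most of cluster 3. It was 1.22% ± 0.134 (standard deviation, n = 5 libraries) in cluster 0, 1.08% ± 0.333 (n = 5) in cluster 1, 1.30% ± 0.442 (n = 5) in cluster 2 and 1.49% ± 0.533 (n = 4) in cluster 4. The ranges over libraries of clusters 0, 1, 2 and 4 overlapped. The clusters were made from the same transcripts, so no test was run between them. In cluster 0 the share was 1.19%, 1.46% and 1.15% in SD replicates 1 to 3 and 1.17% and 1.13% in the HFD libraries. In cluster 2 it was 1.33%, 0.879% and 2.03% on SD and 1.18% and 1.07% on HFD. The diets overlapped in each of these clusters, and SD replicate 3 of cluster 2 (6 cells) stood highest.

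**Figure D2:**
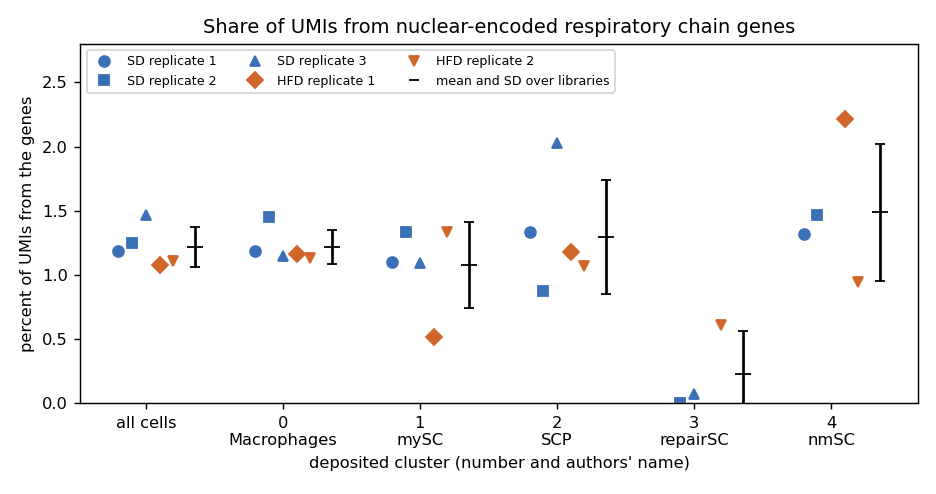
Percent of UMIs from the 85 genes over all cells and in each deposited cluster with at least 3 cells of a library; each symbol is 1 library, and the bar is the mean with its standard deviation over libraries. Clusters 0, 1, 2 and 4 overlap, and cluster 3 lies below 0.7%.

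Cluster 1 had 1 low library. Its share was 1.10%, 1.33% and 1.10% in the SD libraries, 0.520% in HFD replicate 1 and 1.34% in HFD replicate 2. HFD replicate 1 contributed 8 cells, with erythroid genes at 339139 CPM, against 0 in the SD libraries; 23148 of the 23151 erythroid UMIs came from 1 cell. The neutrophil list was at 29957 to 46077 CPM in the HFD libraries and at most at 46.1 CPM in the SD libraries. Of its UMIs, 1471 of 2045 in HFD replicate 1 and 2019 of 2022 in HFD replicate 2 came from 1 cell each. Without neutrophil-like and haemoglobin-rich cells, the share of HFD replicate 1 was 0.737% from 5 cells.

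Cluster 3 stood apart. The share was 0% in SD replicate 2 (0 of 767 UMIs from 3 cells), 0.0713% in SD replicate 3 (19 cells) and 0.612% in HFD replicate 2 (19 cells), where 72 of the 73 UMIs came from 1 cell of 7302 UMIs. Of its 45 barcodes, 36 ended in the same 9 bases, and these held 5 respiratory chain UMIs among 9961 (0.0502%), with 31 of the 36 holding none. They held no Malat1 UMI, a nuclear RNA abundant in most cells, and 0.120% ribosomal protein UMIs. The other 9 barcodes had 0.472% respiratory chain UMIs and 4.11% ribosomal protein UMIs. Of the 44 cells of the study without any respiratory chain UMI, 35 were in cluster 3.

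Cox6c, a regulatory subunit of complex IV, was highest in the fibroblast-marked cluster 4. It was at 574 and 1314 CPM there in SD replicates 1 and 2 and at 2519 and 472 in the HFD libraries, against 355 and 827 in cluster 0 of those SD libraries and 291 and 269 in the HFD ones. Each of the 4 libraries was higher in cluster 4 than in cluster 0, although the ranges over libraries overlapped. This pattern was singled out after its values were seen, and the count rests on few cells: 23 of the 27 UMIs of SD replicate 2 came from 1 cell, and 26 of the 62 of HFD replicate 1 from another. No other cluster had a pooled level above 356 CPM.

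The make-up of the respiratory chain UMIs differed between clusters 0 and 2. Complex I made up 35.5% ± 1.41 of them in cluster 2 (range 33.5% to 37.2%, n = 5 libraries) and 29.5% ± 2.09 in cluster 0 (range 27.2% to 32.6%, n = 5), and the libraries did not overlap. Complex II made up 2.95% ± 1.06 in cluster 2 and 1.76% ± 0.941 in cluster 0, with overlapping libraries. Complex IV made up 26.5% ± 2.61 in cluster 2 and 30.8% ± 2.67 in cluster 0, and complex V 24.2% ± 0.96 and 25.4% ± 4.96, both with overlapping libraries. Cluster 0 of SD replicate 3 holds only 95 respiratory chain UMIs from 8 cells. Without that library the cluster 0 values for complex I lie between 27.2% and 30.2%.

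**Figure D3:**
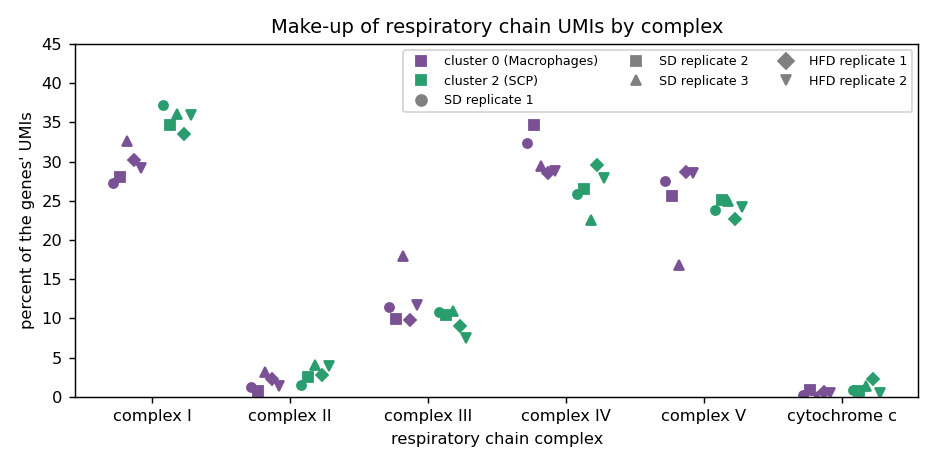
Percent of the respiratory chain UMIs that came from each complex in cluster 0 (purple) and cluster 2 (green), with 1 symbol per library. All 5 cluster 2 values for complex I lie above the 5 cluster 0 values, and the other complexes overlap.

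Gene by gene, 75 members had at least 10 UMIs in each of both clusters, and 10 did not. Ratios were taken per library as log2 of CPM with 50 CPM added, which understates ratios of low genes. Of the 75, 7 were higher in cluster 2 in all 5 libraries (9.33%, against 18.3% of 3391 genes), and 2 were higher in cluster 0 in all 5 (2.67%, against 7.37%). Neither share exceeded that of all genes. The median ratio was 0.12 for the members and 0.36 for all genes.

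The 7 higher in cluster 2 were Sdha and Sdhc of complex II, Ndufs3, Ndufs4, Ndufs5 and Ndufb4 of complex I, and Atp5f1 of complex V. Sdha was at 89.7, 143 and 434 CPM in cluster 2 of the SD libraries and at 134 and 150 in the HFD libraries. In cluster 0 it was at 55.8, 32.4 and 0 CPM on SD and at 112 and 48.3 on HFD, a mean log2 ratio of 1.22 ± 1.23 (standard deviation, n = 5). The libraries of both clusters overlapped, and the highest and the lowest value both came from SD replicate 3. Sdhc had 28 UMIs in cluster 2 and 15 in cluster 0 (log2 ratio 1.22 ± 1.06, n = 5), and Ndufs3, a core subunit of complex I, 22 and 13 (1.17 ± 1.10, n = 5).

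Cox6b1 and Cox7b, both of complex IV, were the 2 higher in cluster 0 in all libraries. Cox6b1 was at 425, 422 and 603 CPM in cluster 0 of the SD libraries and at 362 and 283 in the HFD libraries. In cluster 2 it was at 308, 225 and 337 CPM on SD and at 134 and 242 on HFD. Each library was lower in cluster 2, by 0.66 ± 0.375 on the log2 scale (standard deviation, n = 5), and HFD replicate 1 differed most. Cox7b had a ratio of -0.90 ± 0.749. The lowest mean ratio was that of Atp5e, at -1.14 ± 1.49, which was lower in cluster 2 in 4 of 5 libraries, with 254 UMIs in cluster 0 and 45 in cluster 2. Ndufv3, the small flavoprotein subunit, came after Cox7b, at -0.84 ± 0.80, with 65 and 11 UMIs.

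The nuclear-encoded genes were also set against the 13 chain genes of mitochondrial DNA, which are read in the same cells. There were 0.449 ± 0.0566 nuclear-encoded UMIs per mitochondrially encoded one in cluster 0 (standard deviation, n = 5 libraries), 0.631 ± 0.233 in cluster 1 (n = 5), 0.491 ± 0.126 in cluster 2 (n = 5), 0.243 ± 0.213 in cluster 3 (n = 3) and 0.596 ± 0.157 in cluster 4 (n = 4). The ranges of clusters 0, 1, 2 and 4 overlapped.

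Depth per cell moved with the share. In cluster 0, cells with under 500 UMIs had 1.92% of their UMIs from respiratory chain genes (exact 95% binomial interval 1.62% to 2.26%, 28 cells). Cells of at least 500 and below 2000 UMIs had 1.86% (1.73% to 1.99%, 52 cells), and cells of 5000 UMIs or more had 1.11% (1.08% to 1.14%, 56 cells). Intervals cover counting error only. Split at 5000 UMIs, the shallower cells were higher in each library: 1.35% against 1.16%, 2.16% against 1.21% and 1.45% against 1.10% in SD replicates 1 to 3, and 1.63% against 1.13% and 2.18% against 0.997% in the HFD libraries. SD replicate 3 had 1 cell above the limit. Ribosomal protein genes moved the same way, from 25.6% of UMIs under 500 to 17.5% at 5000 or more, and Malat1 the other way, from 0.454% to 1.56%. Their part in the difference was not tested.

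**Figure D4:**
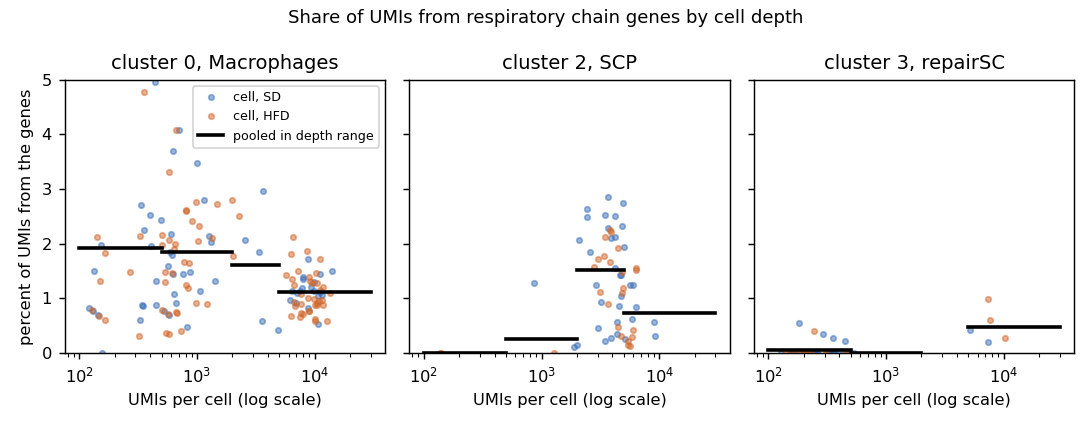
Percent of UMIs from respiratory chain genes against UMIs per cell (log axis) in clusters 0, 2 and 3; each point is 1 cell, and black lines are pooled values within 4 depth ranges. The line falls from 1.92% to 1.11% in cluster 0, and 1 cell lies above the axis limit of 5%.

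In cluster 2, the share was 1.52% in the 39 cells of at least 2000 and below 5000 UMIs and 0.741% in the 15 cells of 5000 or more. It was 0.266% in 4 cells of at least 500 and below 2000 UMIs, and 0% in 2 cells below 500, so the share did not fall steadily with depth. It was lower in the deeper cells in 3 of the 4 libraries that had both: 1.47% against 1.10% in SD replicate 1, 1.26% against 0.490% in SD replicate 2 and 1.45% against 0.485% in HFD replicate 2. HFD replicate 1, with 2 cells and 1 cell, had the opposite order, 0.920% against 1.52%.

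By gene, the lower share of deep cluster 0 cells was seen in complexes I, III, IV and V; no gene of complex II and not Cycs had enough UMIs. The share of complex II was 0.0133% of UMIs below 500 UMIs per cell, where the cells held 7493 UMIs in all. It was 0.0213% in cells of at least 500 and below 2000 UMIs. In cells of at least 2000 and below 5000 UMIs it was 0.0314%, and at 5000 or more 0.0186%, with no steady order. With 87 cells below and 56 at or above 5000 UMIs, 47 members had at least 10 UMIs on both sides. In the shallow cells 10 UMIs were 139 CPM, and in the deep cells a lower level. A gene below 139 CPM in the deep cells could thus pass only by being higher in the shallow ones. The same filter was applied to members and to all genes. How many of either had their direction fixed by it was not counted, so the shares of members and of all genes below are not directly comparable. Of the 47 members, 45 had the higher pooled level in the shallow cells (95.7%, against 63.6% of 989 genes). Within the 4 libraries with enough cells, 14 of the 47 were higher in the shallow cells in every library (29.8%, against 16.4%), and none was higher in the deep cells in every library (0%, against 6.98%). The median log2 ratio of shallow over deep cells was 0.82 for members and 0.32 for all genes. All 16 complex I, 5 complex III and 10 complex IV genes, and 14 of 16 complex V genes, were higher in the shallow cells. The filter fixed that direction in advance for part of these genes, so the counts and medians lean to the shallow cells.

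Cox4i1 shows the pattern and its spread. It was at 670 CPM in shallow and 661 in deep cells of SD replicate 1, at 1806 and 746 in SD replicate 2, at 768 and 428 in HFD replicate 1 and at 771 and 585 in HFD replicate 2. All 4 libraries had the same order, with nearly equal values in SD replicate 1. Uqcr11, a small subunit of complex III, had 527 CPM in shallow and 149 in deep cells. The 2 exceptions were the complex V genes Atp5l, at 291 CPM in shallow and 402 in deep cells, and Atp5g2, at 277 and 286. The limit of 5000 UMIs was chosen after the data were seen, and these genes were named for it.

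When each cell was thinned to 500 UMIs, a cluster 0 cell was expected to show 6.30 of the 85 genes in SD replicate 1, 7.09 in SD replicate 2, 5.72 in HFD replicate 1 and 6.64 in HFD replicate 2. Unthinned cells showed 27.4, 18.2, 30.4 and 19.1. Thinning left out 28 of 143 cells, among them 7 of the 8 of SD replicate 3. Cluster 2 cells were expected to show 5.98, 4.48 and 8.79 genes on SD and 5.40 and 5.09 on HFD. The thinned values of both clusters overlapped.

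The study compared diets, and no respiratory chain gene passed the threshold in any diet comparison. Over all cells, the share of UMIs was 1.19%, 1.25% and 1.47% on SD and 1.08% and 1.11% on HFD, so the diets did not overlap. The marker lists also moved. The 14 myelinating Schwann markers were at 18054 to 39900 CPM on SD and at 3394 to 16237 on HFD, and the neutrophil list at 6.47 to 159 CPM on SD and at 6470 to 12485 on HFD. The 6 neutrophil-like or haemoglobin-rich cells were all from HFD libraries. Without them, HFD replicate 1 was at 1.21% and HFD replicate 2 at 1.12%, and the diets overlapped. Without cluster 3 they did not overlap, at 1.22%, 1.26% and 1.71% on SD and 1.11% and 1.13% on HFD. Without cluster 3 and those 6 cells they did not overlap either, with HFD at 1.21% and 1.14% and the same SD values. The 2 cluster 3 cells of HFD replicate 1 are among those 6, so that library kept 52 cells both ways. The libraries fell into 2 runs, as inferred from project numbers and stated by no label. Within run 1 the HFD value was 0.142 percentage points below the SD mean, and within run 2 it was 0.362 below. As a mean of the shares of single cells, in which shallow cells count as much as deep ones, the difference turned to 0.147 percentage points higher on HFD. Cluster 3 cells count in full there: 2, 3 and 19 in SD replicates 1 to 3, and 2 and 19 in the HFD libraries. This mean was not taken without cluster 3.

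Of the 85 genes, 76 passed the filter on low counts and were tested over all cells, among 5510 genes. None was called higher (0.0907% of all genes were) and none lower (0% were) by edgeR's quasi-likelihood test at an adjusted p of 0.05; 0 members had an unadjusted p below 0.05 (3.01% of all genes did on the higher and 1.38% on the lower side), and DESeq2 called 0. On simulated data this design called few genes even at large changes, so a count of 0 does not show that levels were alike. Fold changes were above 0 in 32 members (51.7% of all genes were) and below 0 in 44 (48.3%). The median log2 fold change, HFD over SD, was -0.09 for the members and 0.02 for all genes. It moved with single libraries, from -0.16 without SD replicate 2 to -0.01 without HFD replicate 2. The libraries of the diets did not overlap in 16 members that were lower on HFD (21.1%, against 12% of all genes) and in 1 that was higher (1.32%, against 11%).

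Uqcr10 was the member with the lowest p among the 16. It was at 209, 207 and 503 CPM on SD and at 166 and 139 on HFD (log2 fold change -0.71 ± 0.55, SE; adjusted p = 0.945 by edgeR). Both HFD values lay below the 3 SD values, and SD replicate 3 was far above the other two. Ndufa4, of complex IV, was the gene higher on HFD, with 135, 123 and 53.0 CPM on SD and 180 and 145 on HFD (0.70 ± 0.53; edgeR adjusted p = 0.945). Ndufv1, the flavin-binding core subunit of complex I, had the lowest p of all members: 43.8, 97.1 and 26.5 CPM on SD and 34.3 and 15.8 on HFD (-1.06 ± 0.71; edgeR adjusted p = 0.943), with overlapping diets. Uqcrfs1, the Rieske iron-sulfur protein of complex III, was at -0.88 ± 0.62, and the complex I gene Ndufa1 at 0.66 ± 0.60 (edgeR adjusted p from 0.945 to 0.951). By complex, 20 of 34 tested complex I genes and 7 of 9 complex III genes had fold changes below 0, and 10 of 17 complex V genes above 0.

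**Figure D5:**
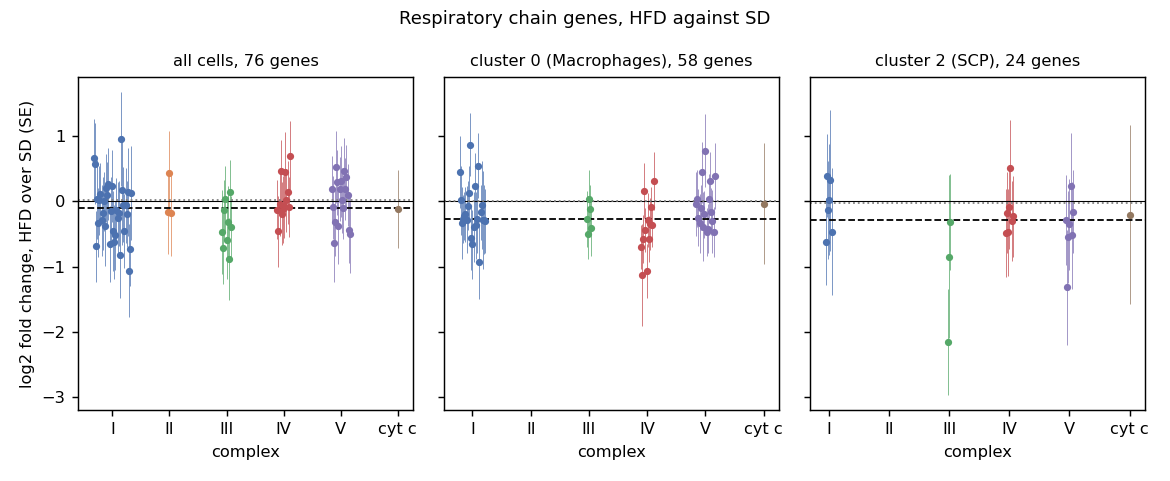
Log2 fold change, HFD over SD, of each tested gene with its standard error, by complex, with a panel each for all cells, cluster 0 and cluster 2; the dashed line is the median of the members and the dotted line that of all genes tested. The member medians are -0.09, -0.27 and -0.29.

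In cluster 0, SD replicate 3 had 8 cells and was left out, and 58 members were tested among 2108 genes in 2 SD and 2 HFD libraries. None was called higher (0% of all genes were) or lower (0.0474% were), and DESeq2 called 0. The median log2 fold change was -0.27 for members and 0.01 for all genes, with 43 of the 58 below 0 (49.6% of all genes were) and 15 above (50.4%). Only Cox6c had an unadjusted p below 0.05, on the lower side (1.99% of all genes did, and 4.08% on the higher side). The median was -0.13 without SD replicate 2 and -0.14 without HFD replicate 2. The diets did not overlap in 17 members that were lower on HFD (29.3%, against 15.7% of all genes) and 8 that were higher (13.8%, against 21.9%). The macrophage list was at 36554 to 49451 CPM on SD and at 36978 to 38210 on HFD, and SD replicate 3 is among these SD libraries. In the 4 libraries tested, the neutrophil list was at 105 and 16.2 CPM on SD and at 206 and 186 on HFD, without overlap, and its part in the fold changes was not tested.

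Of the 12 complex IV genes tested in cluster 0, 10 were below 0, with a median of -0.40. Cox6c was at 355 and 827 CPM in SD replicates 1 and 2 and at 291 and 269 on HFD, a log2 fold change of -1.07 ± 0.41 (SE; edgeR unadjusted p = 0.0227, adjusted p = 0.758). Both HFD values were below both SD values, and SD replicate 2 was far above the other SD library. Cox4i1 was at 662 and 1022 CPM on SD and at 452 and 607 on HFD (-0.70 ± 0.33; edgeR adjusted p = 0.79), again without overlap. Cox7a2l was at -0.58 ± 0.36. In SD replicate 3, outside the test, Cox6c had 1 UMI (121 CPM), below both HFD values, and Cox4i1 5 UMIs (603 CPM). On the other side, the complex I genes Ndufb10 and Ndufb9 were at 0.87 ± 0.49 and 0.55 ± 0.49, and Atp5g3 at 0.78 ± 0.56 (edgeR adjusted p from 0.876 to 0.92). Of the 17 complex V genes, 11 were below 0.

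In cluster 2, 24 members were tested among 1019 genes in all 5 libraries, and 0 were called (0% of all genes in each direction), by edgeR and by DESeq2. The median log2 fold change was -0.29 for members and -0.02 for all genes, with 19 of the 24 below 0 (52% of all genes were) and 5 above (48%). The median was -0.05 without SD replicate 3, -0.58 without SD replicate 2 and 0.059 with the replicate block. The diets did not overlap in Uqcr10 and Atp5e, lower on HFD (8.33%, against 7.75% of all genes), and in Cox7a2, higher on HFD (4.17%, against 10.3%). Macrophage markers were near 0 in this cluster, at 48.2 to 141 CPM on SD and 69.1 to 134 on HFD, with Csf1r among the 5 markers at 0. The nonmyelinating Schwann list, with 6 of 8 markers detected and Ngfr and Gfap at 0, was at 48.2 to 123 CPM on SD and at 534 to 1462 on HFD. Of its 127 UMIs in HFD replicate 2, 113 came from 1 cell, and its part in the result was not tested.

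Uqcr10 was at 333, 143 and 771 CPM in cluster 2 of the SD libraries, from 26, 7 and 16 UMIs, and at 134 and 69.1 CPM on HFD, from 2 and 6 UMIs. The log2 fold change was -2.16 ± 0.81 (SE; edgeR unadjusted p = 0.0109, adjusted p = 1.00). It was the only member with an unadjusted p below 0.05, against 0.393% of all genes in that direction and 1.18% in the other. The HFD values lay below the 3 SD values, and SD replicate 2 was close to HFD replicate 1. Atp5e was at 205, 266 and 241 CPM on SD, 0 in HFD replicate 1 (3 cells) and 127 in HFD replicate 2 (-1.32 ± 0.89). The genes of lowest p on the other side, Cox7a2, Ndufa6 and Atp5j2, were at 0.52 ± 0.73, 0.40 ± 0.64 and 0.24 ± 0.80, each within 1 SE of 0.

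In cluster 1, 25 members were tested among 656 genes, and 0 were called, against 6.86% of all genes called higher and 1.07% lower. The myelinating Schwann list was at 29027 to 69633 CPM on SD and at 8013 to 8204 on HFD, and the nonmyelinating list at 322 to 1752 and at 14.6 to 68.4, without overlap; their part in the fold changes was not tested. DESeq2 called 0, and 0 members had an unadjusted p below 0.05 (15.4% of all genes did on the higher and 6.86% on the lower side). Fold changes were above 0 in 17 members (58.8% of all genes were) and below 0 in 8 (41.2%). The diets did not overlap in 5 members that were lower on HFD (20%, against 22.6%) and in none that was higher (0%, against 14%). The median was 0.32 for members and 0.42 for all genes. Without the neutrophil-like and haemoglobin-rich cells, 13 members could be tested, and the medians were -0.38 and 0.30. That step took cells from the HFD libraries only, and mast cell transcripts of the SD side were not removed. Atp5o, of the stalk of ATP synthase, had the lowest p (-1.97 ± 1.09, edgeR adjusted p = 0.274). Without SD replicate 1 it passed the threshold (edgeR adjusted p = 0.0127, at -2.60). In that fit 1 of 14 members was called lower, and so were 25 of all 395 genes, with 74 called higher. In the main fit, Cox4i1 and Atp5h had the lowest p on the higher side, at 1.48 ± 1.00 and 1.44 ± 1.00.

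The difference between the diet effects of clusters 2 and 0 was tested for 57 members among 2257 genes, with the library as a block. None was called in either direction (0% of all genes in each), 0 had an unadjusted p below 0.05 (0.177% of all genes did on the higher and 0.93% on the lower side), and DESeq2 called 0. Differences were above 0 in 15 members (33.1% of all genes were) and below 0 in 42 (66.9%). The median difference, cluster 2 minus cluster 0, was -0.58 for members and -0.39 for all genes, so members lay 0.19 below the general shift; with RLE scaling the medians were -0.15 and -0.07. Uqcr10 had the lowest p, at -2.04 ± 1.15 (edgeR adjusted p = 1.00), and Cox7a2l the lowest on the other side, at 1.49 ± 1.18. Without SD replicate 1 the member median was 0.17, and without SD replicate 3 it was 0.10.

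Related genes outside the set were read in the same fits. Of 45 assembly factors of the chain, 13 passed the filter over all cells, with 9 below and 4 above 0. All 13 mitochondrially encoded chain genes passed, with 9 above 0 over all cells, and 11 of 12 tested were below 0 in cluster 0. Of 15 regulators of mitochondrial biogenesis, 5 could be tested over all cells, of 20 genes of the citric acid cycle and pyruvate dehydrogenase 11, of 20 glycolysis genes 13, and of 12 mitochondrial carriers and channels 9. None of these genes was called in any of the 5 comparisons. Ppargc1a, the coactivator known as a master regulator of mitochondrial number, was at 0 UMIs in clusters 0, 1, 3 and 4 and was detected in cluster 2. Of the 15 regulators, 11 had UMIs in cluster 0 and 13 in cluster 2. A count of 0 at this depth does not show that a gene was absent.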

How the data were processed

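The deposited table holds UMI counts per gene and cell, for which the submitters' processing notes name Cell Ranger 3.1.0 and the build mm10 as the authors' tools; how reads matching several genes were treated is not given in the sources used here. The deposited cell metadata give the authors' clusters, diet and library, total UMI counts per cell and percent of mitochondrial UMIs, of which the percent was not used for any value. Runs were inferred from project numbers in the deposited library key, since no label states them. Respiratory chain genes were found by symbol. The members, gene lists and tests were chosen with earlier results of these data known. Counts were summed per library and cluster (libraries with at least 3 cells, 10 in cluster 0) and tested with edgeR 4.0.16 (filterByExpr, TMM, robust quasi-likelihood, Benjamini-Hochberg threshold 0.05) in R 4.3.3; DESeq2 1.42.0 was an alternative. SEs are the fold change over the root of F. Scripts were tested on simulated data. Neutrophil-like cells had at least 10 S100a9 UMIs, and haemoglobin-rich cells over 10% erythroid UMIs. No doublet caller was run. Depth ranged from a median of 330.5 to 6608 UMIs per cell by library. Named genes were the top 2 of each complex, isoform sets, complex II, the 3 of lowest p in each direction of each comparison and the 3 with the highest and lowest ratios between clusters 2 and 0; any other was named after its values were seen. A result that falls under these rules but is withheld is not reported here.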

Additional observations from a re-analysis of the deposited data

How the results depend on the processing

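The count of members past the threshold stayed at 0 under the alternatives run in each comparison except cluster 1. There it ranged from 0 to 1 when 1 replicate was left out, and the fit with 1 called 25 of 395 genes lower. Over all cells a count of 0 says nothing of stability, since the test had little power there. The median fold change of members over all cells was 0.060 with no filter on low counts, -0.018 with the replicate block, -0.067 with run as a term and -0.16 to -0.0099 when 1 replicate was left out. In cluster 0 it was -0.11 with no filter, -0.14 with run as a term, -0.16 with at least 3 cells per library, -0.10 with both of the last (chosen after seeing the data), -0.25 with the replicate block and -0.24 to -0.13 when 1 replicate was left out. In cluster 1 it was -0.38 without neutrophil-like and haemoglobin-rich cells and -0.26 to 0.47 when 1 replicate was left out. The difference between clusters 2 and 0 had a median of 0.014 with cells of at least 500 UMIs and of -0.77 to 0.17 when 1 replicate was left out. Genes reversed were Atp5j2 in cluster 2, at -0.67 with at least 5 cells per library and likewise without HFD replicate 1 (-0.67 to 1.06 over the replicates left out), and Ndufa13 in cluster 2, at 0.19 with the replicate block. In the difference between clusters, Cox5a ranged from -0.29 to 2.48 and Atp5g2 from -0.039 to 1.32 over the replicates left out. The share in cluster 0 was 1.48% both without ribosomal protein genes in the denominator and as a mean over cells. As a mean over cells, HFD minus SD was 0.147 percentage points in all cells, 0.0298 in cluster 0 and 0.275 in cluster 1, and in cluster 1 it was -0.656 to 0.159 when 1 replicate was left out. Thinning to 1000 UMIs gave 11.3 expected members in cluster 0 (4 libraries, without SD replicate 3) and 10.7 in cluster 2 (5 libraries), which are unlike sets. Over all cells, genes called higher numbered 5, but 9 with DESeq2, 43 with no filter, 69 with the replicate block and 40 with run as a term. Equal replicate numbers are not known to pair libraries, and correlations of deviations from the diet mean cannot decide it. With 2 HFD libraries these deviations mirror each other, so each SD library correlates with both at opposite signs. Over all cells, same-numbered libraries were at 0.282 and -0.0865, and SD replicate 3 with HFD replicate 2 at 0.235. In cluster 0, with 2 libraries per diet, the value of -0.0460 for both pairs follows from the mirroring. With the replicate block the cluster 2 median was 0.06. All these medians are of members alone, and those of all genes moved too. The member median minus that of all genes was -0.12 over all cells and -0.27 in cluster 0 in the main fits. It was -0.05 and -0.32 with no filter, -0.02 and -0.26 with the replicate block and -0.11 and -0.10 with run as a term. The cause of these moves was not tested. In cluster 2, 61 of 85 genes were too low to test, which limits what this depth can show.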

Other observations

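Ndufab1, the mitochondrial acyl carrier protein and a subunit of complex I that the symbol rule leaves out, had 84 UMIs in all. In cluster 2 it had 17, 8 and 8 UMIs in SD replicates 1 to 3 (218, 163 and 386 CPM), 0 in HFD replicate 1 and 1 in HFD replicate 2 (11.5 CPM). UMIs came from 8 of 19, 4 of 10 and 3 of 6 cells of the SD libraries and from 0 of 3 and 1 of 22 cells of the HFD libraries. The diets did not overlap, but the gene did not pass the threshold (edgeR unadjusted p = 0.00671, adjusted p = 1.00). In cluster 0 it had 4, 1 and 1 UMIs on SD (27.9, 16.2 and 121 CPM) and 15 and 12 on HFD (67.1 and 82.8 CPM), so the diets overlapped there. The difference between the diet effects of the clusters had an unadjusted p of 0.000768 and an adjusted p of 0.866 with edgeR, and an unadjusted p of 0.00342 with DESeq2. The gene was singled out after its values were seen.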
